A study of Mus musculus with 14 samples.

Results

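Removal of sensory nerves with resiniferatoxin (RTX) and a gain-of-function (GOF) form of the kinase JAK1 in cells outside the marrow were set against each other in mouse lungs with allergic inflammation. The comparison joined 9 of the 14 lung RNA libraries of the series, namely all 4 groups of its bone marrow chimera experiment and its subcutaneous RTX experiment. All mice were C57BL/6 and all received intranasal Alternaria alternata, an extract of an allergenic mould, with doses of 2 mg in a volume of 40 µl each day from day 0 to day 3 (4 days). In the chimera experiment, irradiated wild-type mice (2 libraries) or mice with the human JAK1 GOF allele (2 libraries) were given 1e+07 live wild-type bone marrow cells per mouse within 24 hours, so the groups differed in the genotype of the recipient and not of the donor. In the other experiment, wild-type mice with their own marrow received subcutaneous RTX at rising doses of 30, 70 and 100 µg/kg over 3 days (3 libraries) or 100 µl of saline (2 libraries). The sources used here do not give what drives the JAK1 allele, how complete the chimerism was, or the age of the mice. The labels do not say that replicates came from separate mice, so the p-values measure only the spread between these libraries, which may be technical.

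RTX is a potent agonist of TRPV1, the heat and capsaicin channel of nociceptive sensory neurons, and overstimulation with it ablates the nerves that carry the channel. Such nerves in the airway release peptides, among them CGRP, that act on immune cells. JAK1 is a tyrosine kinase bound to the receptors of many cytokines, including those for interleukin-4, interleukin-6, interleukin-7 and the interferons, and it passes their signal to STAT transcription factors. In a marrow chimera the recipient keeps its own epithelium, stroma, vessels and neurons, together with those immune cells that survive irradiation.

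For each gene the RTX effect is the log2 fold change of RTX over saline, and the recipient effect is the log2 fold change of JAK1 GOF over wild-type recipients. Their difference, RTX effect minus recipient effect, was tested with edgeR's quasi-likelihood test in 1 fit of the 9 libraries, with Benjamini-Hochberg adjustment over the 18074 genes tested and a threshold of 0.05. A positive difference means that the RTX effect lies above the recipient effect. Where a gene or list has a pair of log2 values, the RTX effect is given first and the recipient effect second. The 2 effects share no library. Log2 values carry a standard error (±) worked back from the test, as the size of the log2 value over the square root of its F statistic. There were n = 2 libraries in each of 3 groups and n = 3 in the RTX group. Levels are counts per 1e+06 counts (CPM) of single libraries. Because a CPM is not divided by gene length, it orders libraries for 1 gene and not genes against each other.

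The libraries held 18198872 to 22325740 counts, so 3 counts correspond to 0.134 to 0.165 CPM. Surfactant protein gene Sftpc, which marks alveolar type 2 cells, was abundant in every library, with 6088 and 6152 CPM in wild-type recipients, 9202 and 7068 in JAK1 GOF recipients, 10320 and 7674 after saline, and 5453, 7154 and 6629 after RTX. The mouse Jak1 count does not check the human allele. The experiments themselves differed in the level of the type 2 response: Il13, which encodes a type 2 cytokine, had 0.429 and 1.1 CPM in wild-type recipients, 0.403 and 0.165 in JAK1 GOF recipients, 6.81 and 15 after saline, and 15.8, 13.1 and 13.3 after RTX. Saline library 1 stood apart from saline library 2 in heart muscle transcripts, which summed to 513.9 CPM against 136.2 CPM. RTX library 1 stood apart in immunoglobulin. Xist, which coats the silenced X, had 122 and 132 CPM in wild-type recipients, 62.9 and 73.2 in JAK1 GOF recipients, 0.902 and 0.988 after saline, and 1.25, 5.04 and 5.12 after RTX, so it was lower in both JAK1 GOF libraries. The Y-linked gene Eif2s3y had 18.1 CPM in JAK1 GOF 1 against 48.3 to 60.3 CPM in the other chimera libraries. Other Y-linked genes did not fall as far there. Ddx3y had 57.6 CPM against 58.3 to 74.6, Kdm5d 20.6 against 24.9 to 26.5, and Uty 14.4 against 16.7 to 18.4. The part of Xist and Eif2s3y levels in the results was not tested. Libraries also fell into 3 states by the transcripts Rps3a2 and Hmga2, which crossed the groups. Rps3a2 was above 2 CPM in wild-type recipient 1 and RTX 2 and 3, and Hmga2 in wild-type recipient 2, both JAK1 GOF libraries and saline 1.

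The 2 effects ran in opposite directions more often than together. Across the 18074 genes their signs were opposite in 11793 (65.2%). Across the 14333 genes whose mean log2 CPM reached 1, Pearson's r between the effects was -0.449 and Spearman's rho -0.475, as a description over genes, which are not independent and share the same 9 libraries. The difference passed the threshold in 519 genes (2.87%), 321 positive (1.78%) and 198 negative (1.1%). The effects had opposite signs in 516 of the 519, a share that the choice of large differences itself favours and that supports nothing beside the share over all genes. The 3 exceptions, listed after their values were seen, were Muc5ac, Clca1 and Septin3, and in each both estimates were negative and the recipient effect was the larger in size. In 400 of the 519 both effects had an unadjusted p under 0.05. Over all genes, both effects had an unadjusted p under 0.05 in 433 (2.4%) with RTX higher and JAK1 GOF lower, and in 283 (1.57%) with the reverse. The libraries of both experiments did not overlap in 1526 genes (8.44%) with RTX above saline and JAK1 GOF below wild-type, in 1039 (5.75%) with the reverse, in 295 (1.63%) with both above and in 249 (1.38%) with both below. With total counts alone as the scaling, 546 genes passed, 400 positive and 146 negative.

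Neither effect was called as broadly by itself. In this fit the RTX effect passed the adjusted threshold in 0 genes (2922 at an unadjusted p under 0.05, 518 by DESeq2, 0 by limma voom). The recipient effect passed in 10 genes (0.0553%), of which 9 fell in JAK1 GOF recipients and 1, the predicted gene Gm29216, rose. The 9 were Chil3, Clca1, Muc5ac, Il7r, Flt3, Itgae, Wdfy4, Grap2 and Septin3, and all 10 also passed for the difference. The difference therefore carries the tests below, and single effects are given as estimates.

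The count of 519 rested on few libraries. It was 1 without either JAK1 GOF library, 3 without saline 1, 62 without wild-type recipient 2, 134 to 151 without 1 of the RTX libraries, 776 without wild-type recipient 1 and 1317 without saline 2. No named call held in all 9 of these fits (0 of 82), which applies to every call below. All 82 kept their direction in these fits, but they were chosen for large differences in the same libraries, so that is no sign of stability.

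**Figure D1:**
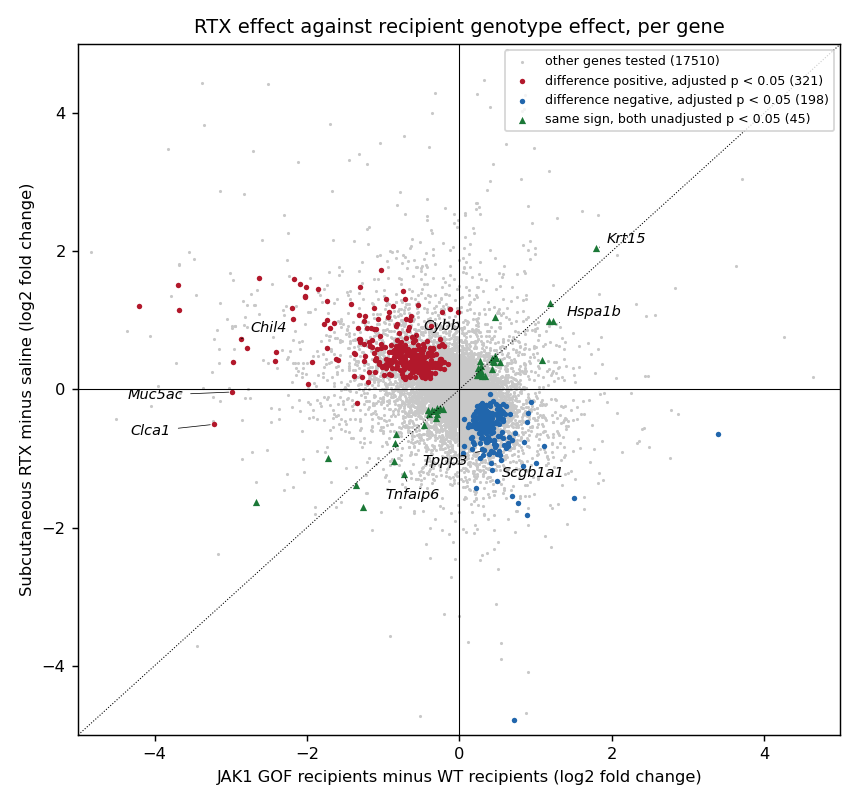
Each point is 1 of the genes tested, with the recipient effect (JAK1 GOF minus wild-type recipients, log2) on the x axis and the RTX effect (RTX minus saline, log2) on the y axis; the dotted line marks equal effects, and 56 genes lie beyond the axis limits of 5. The 321 genes with a positive called difference lie mostly in the upper left, the 198 with a negative one in the lower right, and the 45 genes with both unadjusted p under 0.05 and the same sign (triangles) lie along the dotted line.

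The 49 gene lists showed which functions made up the 2 directions. Eosinophil, macrophage, dendritic, lymphocyte, neutrophil and monocyte lists had positive RTX and negative recipient medians. The exceptions among immune lists were natural killer cells, mast cells and basophils, and alveolar macrophages. Club, ciliated, alveolar type 1, endothelial and clock lists had the reverse. In 13 of the 49 lists the medians shared a sign: natural killer cells, mast cells and basophils, alveolar macrophages, goblet cells, basal cells, heat shock, endoplasmic reticulum stress, immediate early genes, glucocorticoid response, NRF2 targets, cholesterol and fatty acid synthesis, red blood cells and platelets, and receptors for neuropeptides. Most genes were still opposite in the lists of NRF2 targets (10 of 12), neuropeptide receptors (12 of 17), alveolar macrophages (8 of 12) and endoplasmic reticulum stress (8 of 14). The summed level of the monocyte list did not follow its medians, with 5879 to 6468 CPM in JAK1 GOF against 5621 to 5732 CPM in wild-type recipients, and 3468 to 4297 CPM after RTX against 4114 to 5418 CPM after saline. The summed level of the alveolar macrophage list ran opposite, with 1097 to 1180 CPM in JAK1 GOF against 1845 to 2352 CPM in wild-type recipients. It was 5105 to 6051 CPM after RTX against 4154 to 4795 CPM after saline. Chil3, a member whose levels are given below, made up a large part of these sums, so they largely restate that gene. List medians moved with single libraries, and such values are given beside many of the lists below. In whole tissue, fewer cells of a type and less RNA per cell cannot be told apart. Over all genes tested the medians were -0.01 for the RTX effect, 0.01 for the recipient effect and -0.01 for the difference. Each count of opposite or called genes in a list below is to be set beside the shares over all genes, 65.2% opposite and 2.87% called.

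**Figure D2:**
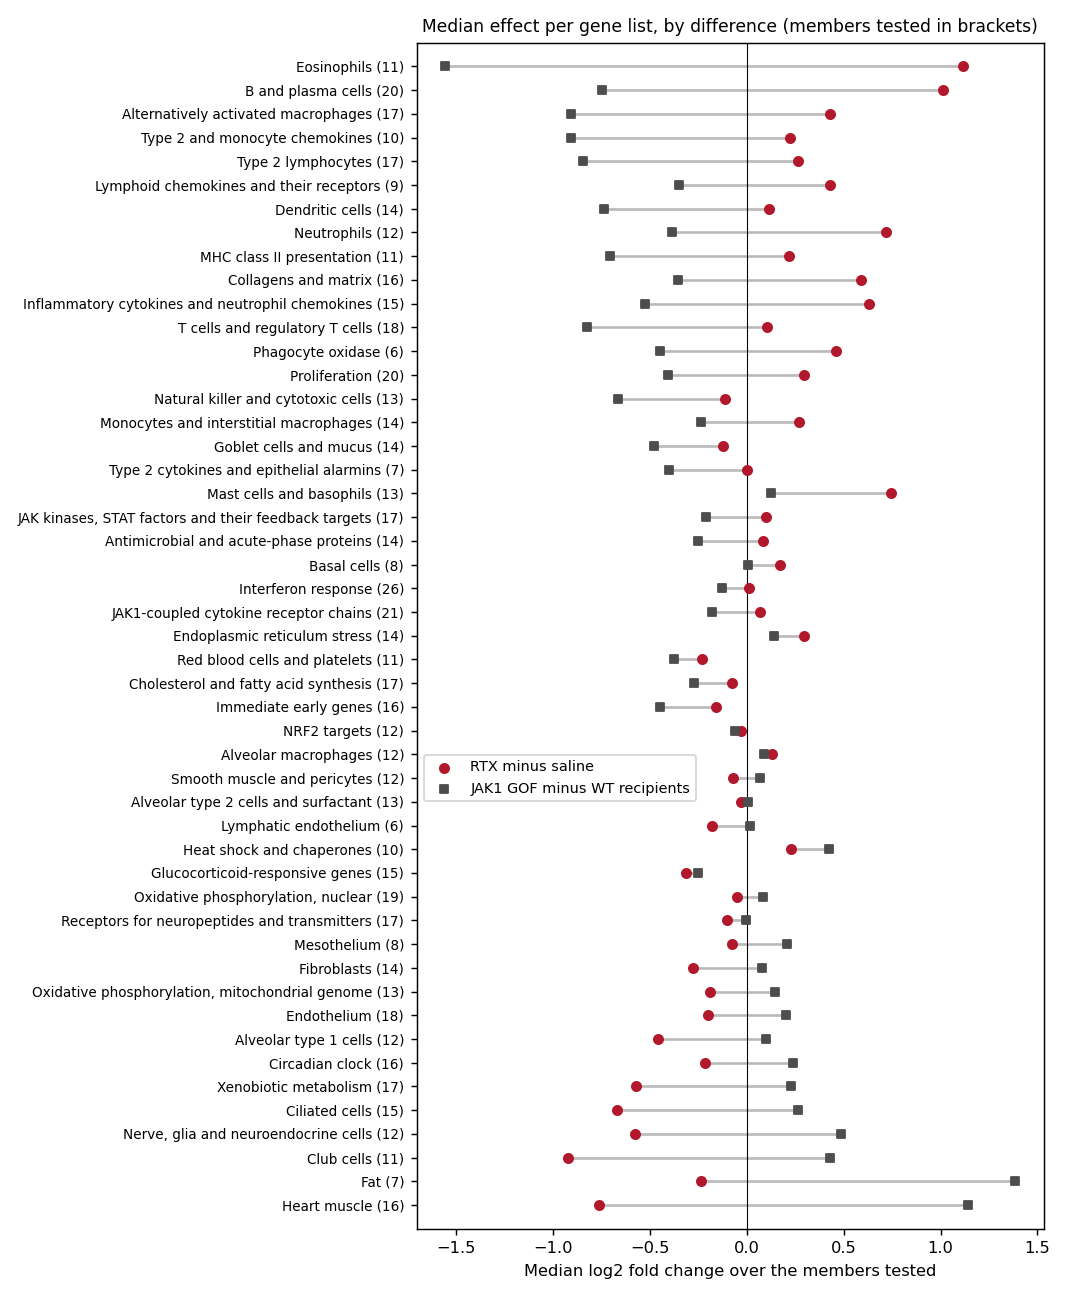
Median log2 fold change over the tested members of each gene list (number in brackets), with RTX minus saline as circles and JAK1 GOF minus wild-type recipients as squares, ordered by the difference. Eosinophil genes (1.12 and -1.56) are at the top, heart muscle genes (-0.76 and 1.14) at the bottom, and heat shock genes (0.23 and 0.42) have both marks right of 0.

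The macrophage genes of the type 2 response ran in opposite directions. Chil3 and Chil4 encode chitinase-like proteins that macrophages and epithelium secrete in allergic inflammation. Their upstream sequences are shown because both genes had opposite effects and both hold the STAT-type motif TTCNNNGAA, the palindrome that cytokine-activated STAT dimers bind. The search covered TTCNNNGAA, which reads the same on both strands, in the 250 bases before the most upstream RefSeq start (GRCm38.p6), with matches in capitals and the sequence written 5′ to 3′ toward the gene. Chil3 lies at chr3:106167565-106167814, minus strand, and its match begins 172 bases before the start. Chil4 lies at chr3:106219480-106219729, minus strand, and its match begins 200 bases before the start.
Chil3: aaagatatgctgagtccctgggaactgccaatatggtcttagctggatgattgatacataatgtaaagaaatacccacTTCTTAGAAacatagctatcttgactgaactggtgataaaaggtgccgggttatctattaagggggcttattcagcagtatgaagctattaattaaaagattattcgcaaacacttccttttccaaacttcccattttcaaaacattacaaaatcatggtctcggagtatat
Chil4: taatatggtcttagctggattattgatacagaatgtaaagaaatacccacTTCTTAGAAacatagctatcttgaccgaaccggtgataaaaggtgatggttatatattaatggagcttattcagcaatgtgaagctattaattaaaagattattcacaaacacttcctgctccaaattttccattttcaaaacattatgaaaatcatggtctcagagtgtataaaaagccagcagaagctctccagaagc
Of the 17 genes in the list of alternatively activated macrophages, 11 had a promoter entry, and of these only Chil3 and Chil4 held the motif (2 of 11), against 7.14% of all 27025 promoters. The share was the same in the ciliated list, whose effects ran the other way (2 of 11, Ccdc113 and Dnah5), and the motif was in 1 of 15 clock and 0 of 8 heat shock genes. The motifs shown here and below were chosen after matches had been looked at, and a match describes these letters, not a bound site.

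Chil3 had 1090 and 1669 CPM in wild-type recipients, 364 and 354 in JAK1 GOF recipients, 3851 and 3253 after saline, and 4237, 5143 and 4703 after RTX. Both JAK1 GOF libraries lay below both wild-type ones, and all RTX libraries lay above both saline ones. That gave an RTX effect of 0.39 ± 0.18 and a recipient effect of -1.93 ± 0.20, and a difference of 2.32 ± 0.27 (adjusted p = 0.0177). Chil4 had 58.4 and 112 CPM in wild-type recipients, 12 and 11.2 in JAK1 GOF recipients, 737 and 646 after saline, and 1357, 766 and 1350 after RTX, again with no overlap within either experiment, and its difference was 3.60 ± 0.51 (adjusted p = 0.0257). The 2 genes are closely related neighbours, so the division of reads between them is uncertain.

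Mmp12, the macrophage elastase, had 197 and 146 CPM after saline against 248, 358 and 353 after RTX, and 133 and 174 in wild-type against 59.3 and 62 in JAK1 GOF recipients. Its difference was 2.21 ± 0.29 (adjusted p = 0.0184). Ccl22, a chemokine that draws CCR4-bearing T cells, had 113 and 130 CPM after saline against 186, 224 and 166 after RTX, and 33.6 and 49 in wild-type against 18.8 and 15.6 in JAK1 GOF recipients. Its difference was 1.90 ± 0.28 (adjusted p = 0.0205). Over the list of 17 such genes, 16 had opposite signs, the medians were 0.43 (RTX, 0.70 without saline 2) and -0.91 (recipient, -0.58 without wild-type recipient 2), and 6 passed for the difference, all positive: the 4 above with Clec7a and Msr1. Retnla (0.09 and -0.67 for the RTX and recipient effects, adjusted p of the difference 0.263) and Arg1 (1.01 and -1.74, adjusted p 0.145) did not pass. Arg1 makes arginase 1, and its saline libraries differed, with 122 and 411 CPM after saline against 660, 443 and 530 after RTX, and 63.7 and 105 in wild-type against 30.3 and 19.4 in JAK1 GOF recipients.

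The type 2 cytokine genes themselves showed no called difference. Il4 had effects of 0.38 and -1.71, Il13 of 0.36 and -1.34, Il5 of -0.35 and -0.61, and the epithelial alarmin Il33 of 0.21 and -0.40, with adjusted p of 0.126, 0.248, 0.91 and 0.376. Il5 had 5.14 and 15 CPM after saline against 9.65, 5.78 and 8.47 after RTX, and 0.333 and 0.287 in wild-type against 0.0896 and 0.33 in JAK1 GOF recipients, so its RTX libraries lay within the range of the saline ones. The eosinophil chemokine genes Ccl11 (effects of 0.01 and -1.52) and Ccl24 (0.57 and -2.32) did not pass for the difference either (adjusted p 0.166 and 0.221).

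Markers of lymphocytes that respond to those cytokines did separate. Il1rl1 encodes the receptor of interleukin-33 on type 2 lymphocytes and mast cells, and had 10.7 and 16.2 CPM in wild-type recipients, 5.29 and 4.89 in JAK1 GOF recipients, 35.7 and 59 after saline, and 73.7, 61.2 and 71.5 after RTX. Its difference was 1.91 ± 0.38 (adjusted p = 0.0435). Il7r, the receptor chain for interleukin-7 that signals through JAK1, had 41 and 35.4 CPM in wild-type recipients, 16.1 and 19.6 in JAK1 GOF recipients, 27.6 and 30.1 after saline, and 43.8, 37.2 and 50.5 after RTX. Both experiments separated without overlap, with an RTX effect of 0.59 ± 0.14 and a recipient effect of -1.08 ± 0.15 and a difference of 1.67 ± 0.21 (adjusted p = 0.0177). In the list of 17 type 2 lymphocyte genes, 15 had opposite signs, all 17 recipient effects were negative, and 4 passed (Il7r, Il9r, Bcl11b and Il1rl1). The list medians were 0.26 (0.07 to 0.64 with 1 library left out) and -0.85 (-0.85 to -0.71).

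T cell genes leaned on the recipient side, and 11 of 18 were opposite (61.1%, against 65.2% of all genes). All 18 had a negative recipient effect (median -0.82, or -0.54 without JAK1 GOF 2), but the RTX median was only 0.11, and it turned negative without saline 1 or without RTX 1. Those that passed included Foxp3, the regulatory T cell factor (difference 2.04 ± 0.37, adjusted p = 0.0305), Cd4 (1.19) and Cd3e (1.28). Foxp3 had 6.68 and 10.9 CPM after saline against 17.2, 13.7 and 13.1 after RTX, and 10.3 and 12.4 in wild-type against 5.51 and 3.52 in JAK1 GOF recipients. Cd8a was near 0 for RTX and below it in the recipients (-0.05 and -0.65, adjusted p 0.664). Natural killer and cytotoxic genes had the same sign more often than not: 8 of 13 RTX effects and all 13 recipient effects were negative, with medians of -0.11 and -0.66 and no call, and the RTX median changed sign without saline 2, while the recipient median was -1.17 without JAK1 GOF 1 and -0.31 without JAK1 GOF 2.

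B cell genes were opposite in 19 of 20, with medians of 1.01 and -0.75, and 8 passed, all positive. Cd22, an inhibitory co-receptor of the B cell receptor, had 32.9 and 29.8 CPM in wild-type recipients, 19.1 and 20.3 in JAK1 GOF recipients, 19.1 and 23.3 after saline, and 55.6, 36.4 and 37 after RTX. Its effects were 1.01 and -0.65, and its difference 1.66 ± 0.27 (adjusted p = 0.0256). Tnfrsf13c, the receptor for the survival factor BAFF, had 4.6 and 4.69 CPM after saline against 15.3, 8.62 and 11 after RTX, and 6.67 and 6.51 in wild-type against 3.81 and 2.86 in JAK1 GOF recipients. Fcer2a, the low-affinity IgE receptor CD23, had a difference of 1.46 ± 0.21 (adjusted p = 0.0177). RTX 1 was the highest library for both Cd22 and Tnfrsf13c, and the summed level of the list was 5509 CPM there against 1681 to 1834 CPM in the other RTX libraries and 1480 to 2380 CPM after saline. Most of that sum was immunoglobulin: Ighm, the IgM heavy chain, had 1064 and 495 CPM after saline against 2990, 612 and 406 after RTX, and 110 and 236 in wild-type against 82.8 and 69.9 in JAK1 GOF recipients. It did not pass (adjusted p 0.489). In RTX 2 and 3, Cd22 was above both saline libraries, while the summed level of the list lay within the saline range. The part of RTX 1 in the other B cell values was not tested.

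Eosinophil genes were opposite without exception. All 11 had positive RTX and negative recipient effects, with medians of 1.12 and -1.56, yet only Prg2 passed. The recipient median was -0.95 when Epx and Prg3, at 0 in both JAK1 GOF libraries and at or near 3 counts in wild-type recipients, were given no fold there, and over all 11 genes it was -0.59 without wild-type recipient 2, while the RTX median was 1.83 without saline 2. Prg2 encodes major basic protein of the eosinophil granule and had 1.86 and 5.93 CPM in wild-type recipients, 0.403 and 0.165 in JAK1 GOF recipients, 4.11 and 9.49 after saline, and 24.6, 14.3 and 19.5 after RTX. Its JAK1 GOF levels were near the limit of 3 counts, so its difference of 5.19 ± 1.03 (adjusted p = 0.0481) is loosely determined. Epx, eosinophil peroxidase, had 0.143 and 0.191 CPM in wild-type recipients, 0 in both JAK1 GOF libraries, and 0.18 and 0.593 CPM after saline and 1.95, 1.19 and 1.48 CPM after RTX. The summed level of the list was 97.2 to 99.2 CPM in JAK1 GOF recipients, 142.1 to 242.5 CPM in wild-type recipients, 313.9 to 458.0 CPM after saline and 561.2 to 709.5 CPM after RTX. Prg2 and Epx made up little of these sums, and the member Ear1 is also in the alveolar macrophage list.

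Genes of antigen presentation followed the same direction. Flt3, the cytokine receptor of dendritic cell precursors, had 14.8 and 15.2 CPM in wild-type recipients, 6.99 and 5.83 in JAK1 GOF recipients, 20.6 and 20.1 after saline, and 21.6, 21.4 and 23.2 after RTX. Here the recipient side carried the difference, with effects of 0.10 and -1.20. Itgae (CD103), a marker of airway dendritic and intraepithelial T cells, was similar (0.17 and -1.28). Fscn1 (0.53 and -0.49) and Cd83 (0.34 and -0.66) mark mature dendritic cells. With Ccl22 and Itgax, 6 of 14 dendritic genes passed, all positive. The dendritic list medians were 0.11 (0.08 to 0.16 with 1 library left out) and -0.74 (-0.84 to -0.69). Of 11 MHC class II genes 10 had opposite signs and 2 passed, H2-DMb2 (1.16) and H2-Ob (1.45). Their medians were 0.22 (0.14 to 0.28 with 1 library left out) and -0.71 (-0.93 to -0.53). Wdfy4, needed for cross-presentation, fell in the recipients (adjusted p of the recipient effect 0.0308) with effects of 0.22 and -0.93.

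Cybb encodes the catalytic subunit of the phagocyte NADPH oxidase. It had 187 and 191 CPM in wild-type recipients, 101 and 142 in JAK1 GOF recipients, 64.4 and 64.2 after saline, and 115, 101 and 113 after RTX, with no overlap within either experiment. The effects were similar in size and opposite in sign (an RTX effect of 0.75 ± 0.13 and a recipient effect of -0.62 ± 0.14), and the difference was 1.37 ± 0.19 (adjusted p = 0.0177). Its partners Ncf1 and Ncf4 had differences of 1.29 ± 0.25 (adjusted p = 0.0387) and 0.94 ± 0.20 (adjusted p = 0.0378). All 6 oxidase genes had opposite signs, 3 passed, and the list medians were 0.46 and -0.45 (-0.29 for the recipients without wild-type recipient 2). Neutrophil genes had medians of 0.72 and -0.39 (-0.69 for the recipients without JAK1 GOF 1, -0.24 without JAK1 GOF 2), and 9 of 12 were opposite (75%, against 65.2% of all genes). Retnlg (2.09 ± 0.34, adjusted p = 0.0302) and Mmp8 (1.30 ± 0.28, adjusted p = 0.0428) passed, while S100a8 and S100a9, abundant neutrophil alarmins, did not (adjusted p 0.475 and 0.169).

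**Figure D3:**
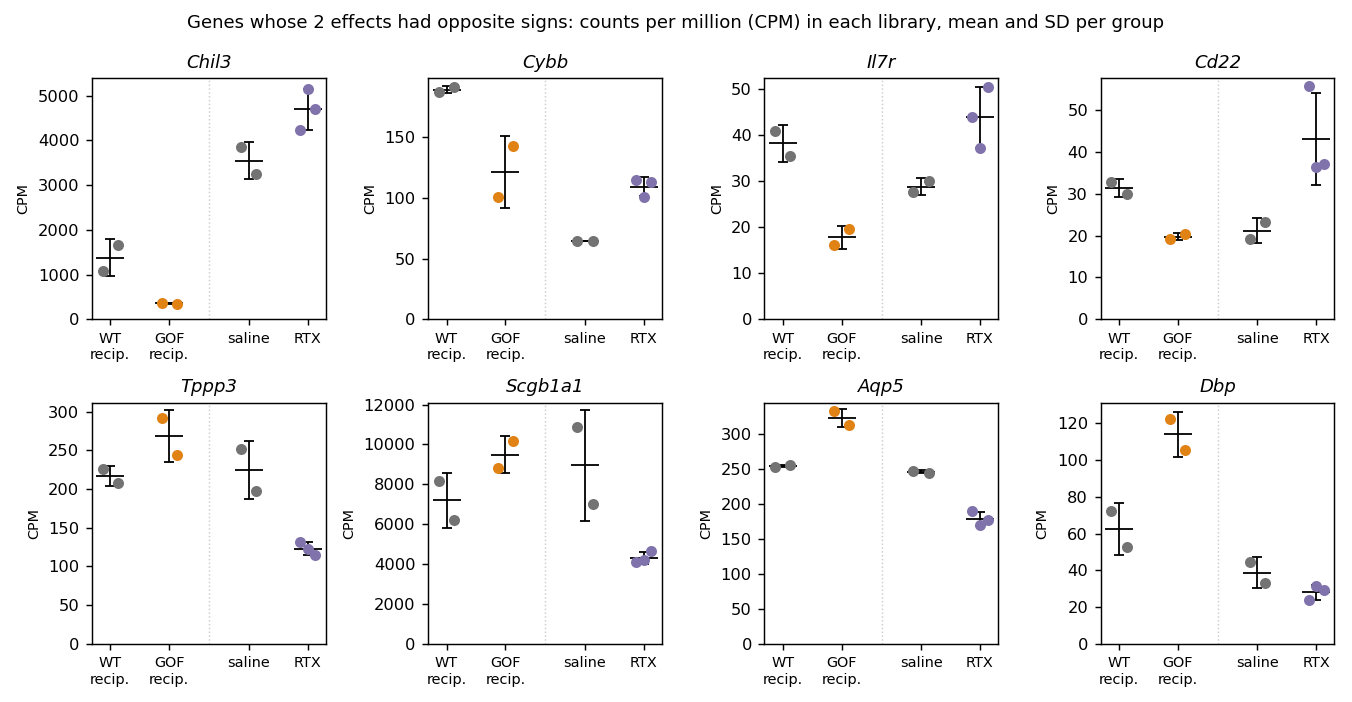
CPM in each library (points), with group means and SD (bars), for 8 genes whose effects had opposite signs: wild-type (WT) and JAK1 GOF recipients left of the dotted line, saline and RTX right of it. In the first 4 genes JAK1 GOF libraries are below wild-type and RTX libraries above saline, as in Cybb (101 and 142 against 187 and 191, 101 to 115 against 64.2 and 64.4), and in the last 4 the order is reversed.

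Cell division genes were opposite in all 20 members tested, with medians of 0.30 and -0.41. Without wild-type recipient 2, the higher of the wild-type libraries in summed level (645.8 against 447.9 CPM), the recipient median was -0.07, and without wild-type recipient 1 it was -0.69. The RTX median was 0.19 without saline 1. Mki67, the proliferation antigen Ki-67, alone passed, with 114 and 138 CPM after saline against 197, 177 and 180 after RTX, and 52.8 and 80.2 in wild-type against 40.8 and 44.1 in JAK1 GOF recipients, with a difference of 1.18 ± 0.25 (adjusted p = 0.0445). Collagen and matrix genes were opposite in 15 of 16 (medians 0.59 and -0.36), the RTX median was 0.36 without saline 1, and the recipient median was -0.14 without JAK1 GOF 1 and -0.67 without JAK1 GOF 2. Of these Lox, which cross-links collagen, alone passed (0.99 ± 0.22, adjusted p = 0.0478). The fibroblast list had the reverse medians (-0.28 and 0.08), with 11 of 14 opposite and no call. Its recipient median changed sign without wild-type recipient 2.

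In the 2 lists for the pathway of JAK1 itself, the called genes were Tyk2 and 6 receptor chains. Il31ra, a receptor chain outside these lists, also passed, with differences of 2.7 to 3.91 when 1 library was left out. Its call was lost with limma voom, without the robust prior, with the replicate block and with library state. Jak1 had 256 and 281 CPM in wild-type recipients, 204 and 191 in JAK1 GOF recipients, 210 and 253 after saline, and 268, 274 and 268 after RTX, with effects of 0.21 and -0.42 and a difference that just missed the threshold (adjusted p 0.0508). Tyk2, a kinase of the same family, passed (0.62 ± 0.12, adjusted p = 0.0317). Among 17 JAK, STAT and feedback genes 16 were opposite in sign, but the medians were small (0.10 and -0.21, the second -0.05 without wild-type recipient 2). Among 21 receptor chains 6 passed, all positive: Il7r, Il9r, Il10ra, Il27ra, Ifnar1 and Il21r. Il4ra, the chain shared by the interleukin-4 and interleukin-13 receptors, had small effects (0.07 and -0.18), as did Il6st (0.01 and -0.11), the common chain of interleukin-6 family receptors, and neither passed. The 26 interferon response genes were split, with 13 opposite, medians of 0.01 and -0.13, and no call, and both medians changed sign with 1 library left out (the RTX one without saline 1 or RTX 1, the recipient one without wild-type recipient 2).

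Club cell genes of the airway epithelium ran in the reverse direction, lower with RTX and higher in JAK1 GOF recipients. The goblet and basal cell lists, given below, did not. Scgb1a1, the secretory protein of club cells, had 8181 and 6201 CPM in wild-type recipients, 8825 and 10170 in JAK1 GOF recipients, 10900 and 6993 after saline, and 4092, 4207 and 4649 after RTX. All RTX libraries lay below both saline ones, and both JAK1 GOF libraries above both wild-type ones. The estimates were an RTX effect of -1.06 ± 0.19 and a recipient effect of 0.42 ± 0.21, and the difference -1.48 ± 0.29 (adjusted p = 0.0332). Cyp4b1, a lung cytochrome P450, and Hp, haptoglobin, also passed (-0.85 and -1.01). Of 11 club cell genes 10 were opposite, with medians of -0.92 and 0.43. Saline 1 was the high library, and the RTX median was -0.41 without it, while the recipient median was 0.27 without wild-type recipient 2. The summed level still separated, at 9590 to 15140 CPM after saline against 5660 to 6368 CPM after RTX.

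Ciliated cell genes did likewise. Dynlrb2, a light chain of the dynein motor, and Sntn, a protein of the cilium tip, are shown because their upstream sequences hold GTTGCC, one arm of the X-box that RFX factors of ciliogenesis bind (both strands searched, capitals mark the match). Dynlrb2 lies at chr8:116504765-116505014, plus strand, and its match begins 51 bases before the start. Sntn lies at chr14:13670626-13670875, plus strand, and its match begins 66 bases before the start (RefSeq, GRCm38.p6).
Dynlrb2: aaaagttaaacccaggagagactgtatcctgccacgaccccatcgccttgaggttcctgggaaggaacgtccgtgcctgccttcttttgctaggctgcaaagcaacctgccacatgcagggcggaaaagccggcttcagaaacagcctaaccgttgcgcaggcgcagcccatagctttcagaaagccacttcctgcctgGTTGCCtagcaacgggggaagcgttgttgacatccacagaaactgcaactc
Sntn: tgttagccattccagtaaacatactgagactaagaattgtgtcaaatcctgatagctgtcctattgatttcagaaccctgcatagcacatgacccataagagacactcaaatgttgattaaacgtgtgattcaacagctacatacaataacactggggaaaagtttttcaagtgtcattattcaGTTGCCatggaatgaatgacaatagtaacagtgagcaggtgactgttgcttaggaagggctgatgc
This arm was in 10.5% of all promoters and in 4 of the 11 ciliated list genes with an entry (Dynlrb2, Ccdc113, Tekt1 and Hydin). Sntn is not in that list. The arm was in 0 of 11 macrophage, 1 of 8 heat shock and 2 of 15 clock genes with an entry.

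Dynlrb2 had 12.9 and 14.1 CPM in wild-type recipients, 21.9 and 19.4 in JAK1 GOF recipients, 14.8 and 10 after saline, and 6.36, 7.02 and 8.52 after RTX, with a difference of -1.42 ± 0.27 (adjusted p = 0.0317). Sntn had 9.61 and 6.03 CPM after saline against 4.32, 4.08 and 3.93 after RTX, and 8.57 and 7.7 in wild-type against 12.1 and 10.6 in JAK1 GOF recipients, with a difference of -1.44 ± 0.29 (adjusted p = 0.0356). Tppp3, a tubulin-binding protein, had 251 and 198 CPM after saline against 131, 123 and 115 after RTX, and 227 and 208 in wild-type against 292 and 245 in JAK1 GOF recipients, with a difference of -1.21 ± 0.17 (adjusted p = 0.0177). Over 15 ciliated genes all RTX effects were negative, 13 were opposite, the medians were -0.67 and 0.26, and 4 passed (Tppp3, Tekt4, Dynlrb2 and Cfap126). Without saline 1 the RTX median was -0.23. Foxj1, the ciliated cell factor, did not pass (-0.41 and 0.53, adjusted p 0.131).

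Alveolar and vascular genes shared this direction. Aqp5, a water channel of alveolar type 1 cells and glands, had 253 and 255 CPM in wild-type recipients, 333 and 314 in JAK1 GOF recipients, 247 and 244 after saline, and 190, 170 and 177 after RTX. The groups did not overlap, and the difference was -0.84 ± 0.12 (adjusted p = 0.0184). Ager, Hopx and Rtkn2, all type 1 markers, passed with differences of -0.75, -0.99 and -0.78, and 10 of 12 type 1 genes were opposite. The type 1 medians were -0.46 (-0.47 to -0.36 with 1 library left out) and 0.10 (0.04 to 0.17). Among 18 endothelial genes 14 were opposite (77.8%, against 65.2% of all genes). Their medians were -0.20 (-0.27 to -0.12 with 1 library left out) and 0.20 (0.17 to 0.34). The 4 that passed were Cldn5, the endothelial tight junction protein (-0.93), Ackr3 (-1.17), Car4 (-0.82) and Egfl7 (-0.82). Alveolar type 2 genes had medians of -0.03 and 0.01 and no call. The RTX median changed sign without saline 1 or RTX 1, and the recipient median with another scaling.

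Xenobiotic metabolism followed the club and ciliated lists. Cyp2b10, an inducible cytochrome P450, had 209 and 196 CPM after saline against 131, 119 and 144 after RTX, and 206 and 190 in wild-type against 225 and 241 in JAK1 GOF recipients, with a difference of -0.89 ± 0.14 (adjusted p = 0.0205). All 17 genes of the list had negative RTX effects, with a median of -0.57 (-0.21 without saline 1) against 0.23 in the recipients, and Cyp2b10 and Gstt1 (-0.65) passed.

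Clock output genes ran opposite as well. Dbp, a D-box transcription factor under direct clock control, had 72.3 and 52.5 CPM in wild-type recipients, 122 and 105 in JAK1 GOF recipients, 44.6 and 32.9 after saline, and 23.6, 31.5 and 29.2 after RTX, without overlap, and a difference of -1.36 ± 0.26 (adjusted p = 0.0347). Nr1d1, Nr1d2 and Tef also had called negative differences (-1.12, -0.78 and -0.91). Arntl (BMAL1), the activator that Nr1d1 represses, went the other way (0.41 and -0.61, adjusted p 0.0491). Per1, which also answers stress, had negative estimates in both (-0.32 and -0.71), and in the recipient comparison its wild-type libraries were far apart (227 and 74 CPM in wild-type recipients, 66.7 and 115 in JAK1 GOF recipients, 89.4 and 89.1 after saline, and 87.4, 59.6 and 68.9 after RTX). The E-box CACGTG, bound by the clock activators, was in the upstream bases of 5 of the 15 list genes with an entry (Per1, Cry1, Tef, Ciart and Bhlhe41), against 6.04% of all promoters. Tissue collection times are not given in the sources used here, and their part in these values was not tested.

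**Figure D4:**
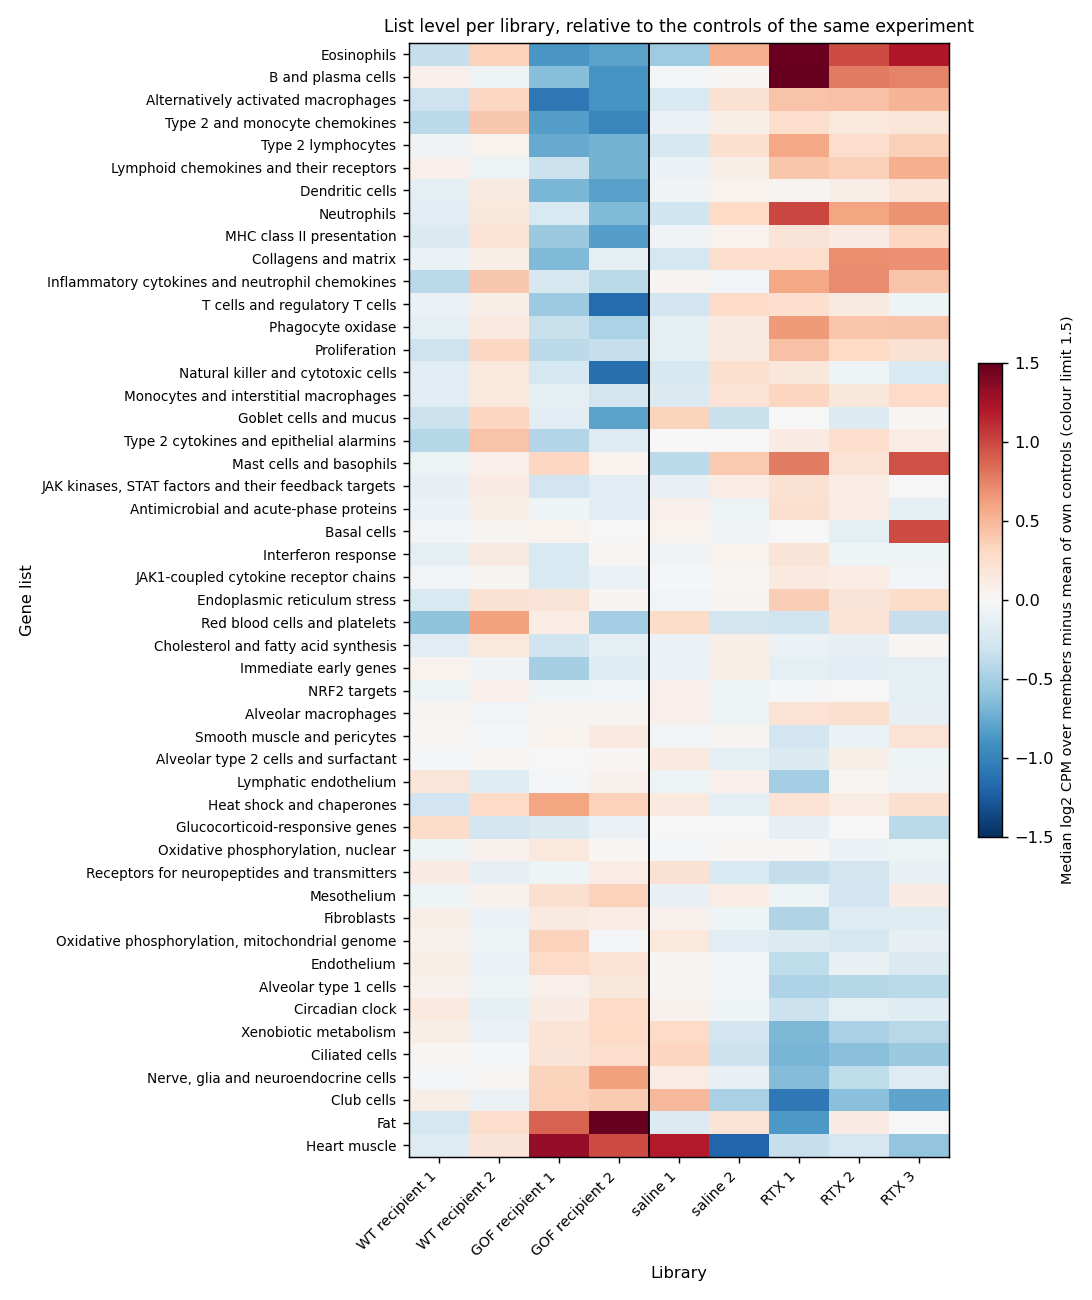
Each cell is the median log2 CPM of a gene list in 1 library minus the mean of the control libraries of the same experiment, with red above and blue below, and lists in the order of the difference. The upper rows, from eosinophils to neutrophils, are blue in both JAK1 GOF libraries and red to pale in the RTX libraries, the club and ciliated rows are the reverse, and the heart muscle row shows saline 1 above and saline 2 below all RTX libraries.

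Over all genes tested, 6281 (34.8%) had the same sign in both comparisons, but few of them were clear in both. No gene passed the adjusted threshold for the mean of the 2 effects with edgeR (0 of 18074, lowest adjusted p 0.156), while 1095 had an unadjusted p under 0.05, DESeq2 called 36 and limma voom 0. At an unadjusted p under 0.05 in both effects, 45 genes had the same sign, 26 both higher (0.144%) and 19 both lower (0.105%), against 716 with opposite signs. The single genes below were chosen after their values were seen and none is a call.

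Of the 49 lists, the heat shock genes were the most alike in sign. Positive were 9 of 10 RTX effects and all 10 recipient effects. The medians were 0.23 for RTX (0.14 without saline 2) and 0.42 for the recipients (0.15 without wild-type recipient 1). Only Dnajb1 was opposite (-0.07 and 0.54). The upstream sequences of Hspa1b, an inducible HSP70, and Hspb1, the small chaperone HSP27, are shown because they hold the inverted repeat GAANNTTC or TTCNNGAA of the heat shock element, in capitals (both strands searched). Hspa1b lies at chr17:34959239-34959488, minus strand, and its match begins 104 bases before the start. Hspb1 lies at chr5:135887669-135887918, plus strand, and has 2 matches, the first 117 bases before the start (RefSeq, GRCm38.p6).
Hspa1b: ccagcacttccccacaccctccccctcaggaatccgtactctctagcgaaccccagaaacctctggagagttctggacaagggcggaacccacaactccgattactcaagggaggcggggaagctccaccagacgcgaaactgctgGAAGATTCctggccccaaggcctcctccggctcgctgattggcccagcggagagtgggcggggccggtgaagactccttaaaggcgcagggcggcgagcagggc
Hspb1: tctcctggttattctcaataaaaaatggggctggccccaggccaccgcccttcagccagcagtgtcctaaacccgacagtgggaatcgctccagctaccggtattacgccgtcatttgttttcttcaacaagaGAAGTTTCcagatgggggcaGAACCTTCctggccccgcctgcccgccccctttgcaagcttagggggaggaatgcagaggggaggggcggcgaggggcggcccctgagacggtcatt
The motif was in 5 of the 8 list genes with an entry and in 13% of all promoters. It was in none of the 11 macrophage and 11 ciliated list genes with an entry.

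Hspa1b had 36.2 and 75.6 CPM in wild-type recipients, 155 and 112 in JAK1 GOF recipients, 218 and 134 after saline, and 444, 282 and 306 after RTX. It was higher in both JAK1 GOF than in both wild-type libraries and in all RTX than in both saline libraries, with an RTX effect of 0.95 ± 0.40 and a recipient effect of 1.27 ± 0.44 and a mean of the effects that did not pass (adjusted p 0.75). Hspa1a and Hspa1b are near-identical copies, so the division of reads between them is uncertain. Hspb1 had 86 and 97.5 CPM in wild-type recipients, 161 and 118 in JAK1 GOF recipients, 154 and 124 after saline, and 163, 139 and 202 after RTX, so its RTX and saline libraries overlapped. Hsph1 had effects of 0.60 and 0.59.

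Krt15, a keratin of airway basal cells, was higher in both, with 1.72 and 1.77 CPM in wild-type recipients, 7.3 and 4.62 in JAK1 GOF recipients, 0.541 and 0.445 after saline, and 2.69, 1.33 and 2.2 after RTX. Its effects were 2.04 and 1.79, and the adjusted p of their mean was 0.156. Tnfaip6, which encodes the hyaluronan-binding protein TSG-6, was lower in both, with 4 and 3.44 CPM in wild-type recipients, 2.33 and 2.09 in JAK1 GOF recipients, 11.1 and 9.88 after saline, and 4.27, 4.31 and 5.03 after RTX, and with effects of -1.22 and -0.73 (adjusted p of the mean 0.156). Neither gene's groups overlapped. The basal cell list, Krt15 included, was mixed: 4 of 8 RTX and 4 of 8 recipient effects were negative, and the medians were 0.17 and 0.01. Opposite signs were found in 2 of 8 (25%), against 65.2% of all genes. Above the controls without overlap in both experiments were 2 of the 8, against 1.63% of all genes, and Krt15, chosen after its values were seen, was among them. The summed level was 792.5 to 955.1 CPM over all 9 libraries. Both basal medians changed sign with 1 library left out (the RTX one without RTX 3, the recipient one without JAK1 GOF 1). Dnajb9, a chaperone of the endoplasmic reticulum, and Fabp4, a fatty acid carrier of fat, capillaries and macrophages, were also higher in both. Their effects were 0.41 and 0.27 for Dnajb9 and 0.43 and 1.09 for Fabp4.

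**Figure D5:**
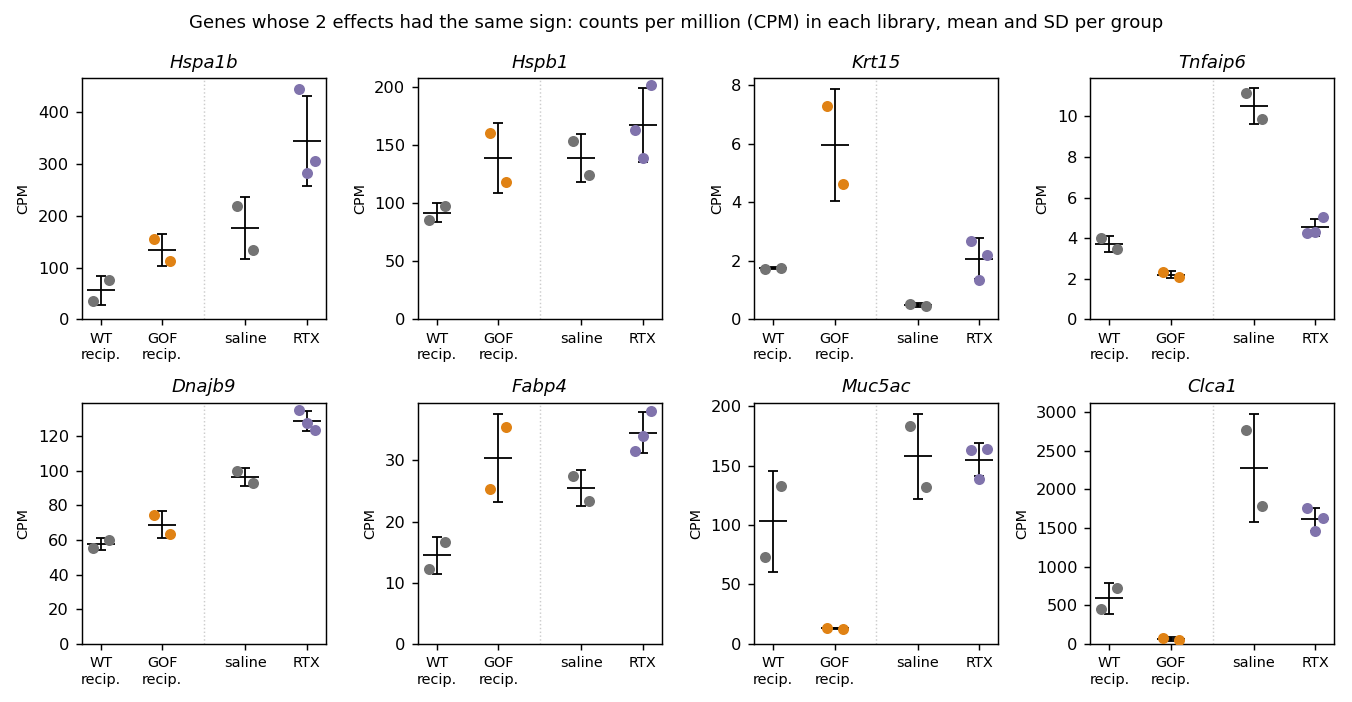
CPM in each library (points), with group means and SD (bars), for 8 genes whose effects had the same sign: wild-type (WT) and JAK1 GOF recipients left of the dotted line, saline and RTX right of it. Krt15 and Hspa1b are higher and Tnfaip6 lower on the right of each pair, while Muc5ac and Clca1 drop in JAK1 GOF recipients with RTX libraries inside or just below the saline range.

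Other lists also had medians of the same sign, with more of their genes opposite. The 17 cholesterol and fatty acid genes had medians of -0.08 and -0.27 with 5 opposite, and the RTX median changed sign without saline 2, while the recipient one was -0.05 without wild-type recipient 2. Of the enzymes of cholesterol synthesis, Fdft1 (-0.29 and -0.22) and Msmo1 (-0.31 and -0.33) were lower in both. Immediate early genes had medians of -0.16 and -0.45, and the recipient one was -0.10 without wild-type recipient 1. Endoplasmic reticulum stress genes had 0.29 and 0.14, and glucocorticoid-responsive genes -0.31 and -0.25, but both recipient medians changed sign without wild-type recipient 1. Cebpd, a glucocorticoid- and cytokine-induced factor, had effects of -0.42 and -0.30. The mast cell and basophil list (medians 0.74, or 0.37 without saline 1, and 0.13) had 13 positive RTX effects but a split recipient side (8 positive, 5 negative).

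Few mucus genes were opposite (3 of 14), with list medians of -0.12 and -0.48. In Muc5ac the recipient effect was large and the RTX effect near 0. Muc5ac, the inducible airway mucin, had 73 and 133 CPM in wild-type recipients, 13.2 and 12.7 in JAK1 GOF recipients, 183 and 132 after saline, and 163, 139 and 164 after RTX. It fell in JAK1 GOF recipients by 2.98 ± 0.31 on the log2 scale (adjusted p 0.0416), while the RTX effect was -0.04 ± 0.25. Clca1, a goblet cell protein that regulates mucus, had 448 and 726 CPM in wild-type recipients, 79.5 and 45 in JAK1 GOF recipients, 2772 and 1782 after saline, and 1761, 1462 and 1626 after RTX. It fell in the recipients by 3.22 ± 0.35 (adjusted p 0.0416), with an RTX effect of -0.51 ± 0.29. Fcgbp (-0.25 and -2.20) and Foxa3 (-0.08 and -1.12) resembled Muc5ac without passing. The list's RTX median changed sign without saline 1, and its recipient median without wild-type recipient 2.

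Transcripts of neighbouring tissue also differed between groups. All 16 heart muscle genes had negative RTX and positive recipient effects, with medians of -0.76 and 1.14 and no call among them, but the RTX median was 0.80 without saline 1. Their median difference of -2.01 was larger in size than that of the club (-1.36) or ciliated list (-0.91). Tnnc1, the slow and cardiac troponin C, which was not in that list, passed (-2.08 ± 0.42, adjusted p = 0.0347), with 4.76 and 5.02 CPM in wild-type recipients, 10.2 and 9.29 in JAK1 GOF recipients, 8.12 and 3.71 after saline, and 3.25, 2.66 and 2.63 after RTX. Summed heart muscle transcripts were 670.3 to 679.4 CPM in JAK1 GOF against 301.7 to 427.0 CPM in wild-type recipients. Their part in the other results was not tested.

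Nerve, glia and neuroendocrine genes had medians of -0.58 and 0.48 over 12 genes, 11 of them opposite, without a call, and the RTX median was -0.21 without saline 1. Calca, which encodes CGRP and is also made by pulmonary neuroendocrine cells, had 3.34 and 5.04 CPM after saline against 2.55, 2.66 and 2.49 after RTX, and 1.57 and 1.72 in wild-type against 1.97 and 1.7 in JAK1 GOF recipients, and all RTX libraries lay below both saline ones (unadjusted p of the RTX effect 0.0145). Its difference did not pass (adjusted p 0.205). The cell bodies of the sensory nerves lie outside the lung, so lung RNA does not measure how far RTX removed them.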

How the data were processed

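RNA was measured by sequencing of oligo-dT-enriched lung RNA. Per the submitters' processing notes, the tools were FastQC 0.11.8, Trim Galore 0.6.6, STAR 2.7.5b and Salmon 1.2.1 on GRCm38. The sources used here give neither annotation release nor strand setting. The authors deposited estimated counts for each gene in each library, of which 24.3% were not whole numbers. Both tables (54347 genes each) were joined on gene identifier, and counts were rounded. Estimated counts split reads between near-identical copies. edgeR 4.0.16 (R 4.3.3) fitted 4 group means after TMM scaling and filterByExpr (minimum count 10, minimum total 15), with robust quasi-likelihood; limma 3.58.1 and DESeq2 1.42.0 were alternatives. The method was tested on simulated data. Replicates differed beyond sampling noise (chi-square per degree of freedom 11.2 to 22.2). Floors cover counting error only. Named genes were the 12 largest called differences per direction, up to 4 called members per list or else 2, all at mean log2 CPM of at least 1, and fixed genes at any level (Il4 and Il5 lay below it); not all are printed. Genes printed beyond this rule, among them Krt15 and Mrgprg, were chosen after their values were seen. The members, lists and rule were chosen with earlier results of these data known. The 5 intrathecal libraries entered only 1 alternative.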

Additional observations from a re-analysis of the deposited data

Results flagged for a closer look

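A difference between the effects in the 2 experiments was tested directly, and 519 genes passed. Among the genes singled out, Chil3 had a difference of 2.32 on the log2 scale, Clca1 of 2.72 and Muc5ac of 2.94, each with a positive sign, and Dbp of -1.36. For Muc5ac and Clca1 the difference came from the recipient side, with RTX effects of -0.04 and -0.51 that did not pass.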

How the results depend on the processing

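The count of called differences (519) was 454 with DESeq2 size factors, 546 with total counts, 552 at 1 CPM in 2 libraries, 366 without the robust prior, 268 with limma voom, 1391 with DESeq2, 1000 with all 14 libraries in 1 fit, 2447 without a low-count filter and 1505 at an adjusted p under 0.1. Leaving out 1 library gave 1 to 1317. The replicate block gave 43, of which 21 were among the 519. The labels number the replicates alike across groups. Deviations of same-numbered libraries had correlations of -0.0537, -0.146 and -0.135. With 2 or 3 libraries per group, these values cannot show whether the numbers pair the libraries. A term for library state, chosen after seeing the data, gave 576, with 265 among the 519.

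The mean of the effects (0) gave 409 without a filter, 36 with DESeq2, 3 with 14 libraries, 17 with library state and 0 to 9 with 1 library left out. The RTX effect (0) gave 1631 without a filter, 518 with DESeq2, 71 with 14 libraries, 12 with the replicate block, 100 at an adjusted p under 0.1, 222 with library state and 0 to 558 with 1 library left out. The recipient effect (10) gave 1119 without a filter, 403 with DESeq2, 3 with limma voom, 50 with 14 libraries, 0 with the replicate block, 85 at an adjusted p under 0.1, 136 with library state, 124 with each experiment fitted alone and 0 to 158 with 1 library left out. The cause of these changes was not tested. Where an arm was left with 1 library, it was assumed to vary like the other groups. Ccl22, Chil4, Cybb, Fcer2a, Muc5ac and Slc7a11 kept their call in all 11 alternatives that left out no library. With 2 or 3 libraries per group, a gene that missed the threshold is not shown to be unchanged.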

Other observations

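Slc7a11, the cystine transporter of the NRF2 programme, had 16.3 and 20.4 CPM in wild-type recipients, 8.33 and 9.07 in JAK1 GOF recipients, 15.6 and 13.4 after saline, and 29.4, 34 and 25.7 after RTX. The groups did not overlap, and the difference was 2.09 ± 0.23 (adjusted p = 0.0177), the sole call among 12 NRF2 targets, whose list medians were -0.03 and -0.06 (the RTX one changed sign without saline 1, the recipient one without wild-type recipient 2). Scd1, a fatty acid desaturase of type 2 cells and fat, had a negative difference (-1.08 ± 0.24, adjusted p = 0.0473) within a lipid synthesis list that otherwise had no call. Acod1, which makes itaconate in activated macrophages, had 1.08 and 1.58 CPM after saline against 4.5, 4.4 and 4.41 after RTX, and 8.91 and 14.4 in wild-type against 5.73 and 5.55 in JAK1 GOF recipients, with a difference of 2.76 ± 0.37 (adjusted p = 0.0177).

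Of the immediate early genes, Egr3 and Ier3 passed in opposite directions (1.25 and -0.81). Upk3b, a mesothelial marker, had a difference of -0.78 ± 0.15 (adjusted p = 0.034). Has1, a hyaluronan synthase, had 21 and 18.6 CPM after saline against 8.45, 5.32 and 8.47 after RTX, and 4.67 and 7.42 in wild-type against 6 and 7.97 in JAK1 GOF recipients, with a difference of -1.65 ± 0.37 (adjusted p = 0.0481) that came from the RTX side. Alveolar macrophage genes had medians of 0.13 for RTX and 0.09 for the recipients, and fat genes of -0.24 and 1.38 with no call (the RTX median of fat changed sign without saline 2 or RTX 1, and its recipient median was 0.82 without JAK1 GOF 2). Adipoq, the fat cell hormone adiponectin, had 3.62 and 5.12 CPM in wild-type recipients, 7.57 and 16.5 in JAK1 GOF recipients, 2.84 and 4.74 after saline, and 2.09, 4.04 and 3.21 after RTX. Mrgprg, a receptor of the Mas-related family, was at 6.54 and 5.44 CPM after saline against 2.41, 1.88 and 1.53 after RTX, and 0.0476 and 0.335 in wild-type against 0.0448 and 0 in JAK1 GOF recipients.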
